A study of Mus musculus with 30 samples.

Results

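Clock output factors, the transcription factors that sit 1 step downstream of the circadian oscillator, were followed in the hypothalamus of mice carrying a humanized Per3 gene. They comprised 6 genes, Dbp, Tef, Hlf, Nfil3, Bhlhe40 and Bhlhe41. The genes were picked by symbol and by no cut on measured values, though with earlier results of these data known. All probes that the array annotation names for them were taken, which gave 11 of 41174 probes and 6 of 28146 gene names. The 30 arrays each held the RNA of 1 mouse: 7 Per3 5/5 mice (labelled Boxhill), 8 Per3 4/4 mice (labelled Coach) and 15 wild-type (WT) mice. The study's methods describe male C57BL/6 mice, 8 per genotype, with 1 Per3 5/5 and 1 WT sample left out. That is fewer WT mice than the 15 here, and the sex of the rest is not stated there. Both copies of mouse Per3 exon 18 had been replaced with the human exon, which bears 5 units of a tandem repeat in the Per3 5/5 line and 4 in the Per3 4/4 line. The knock-in (KI) and WT mice were bred from the same conditional lines with a ubiquitous Cre that the mice used here no longer carried. Every mouse, WT included, lived under 3.5 h of light and 3.5 h of darkness, and tissue was taken during cycle 17 of that schedule. There was no group under an ordinary light-dark day and only 1 sampling time, so no rhythm could be read from these arrays.

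DBP, TEF and HLF are the PAR bZIP proteins. They activate genes through D-box elements, and their own transcription is driven by CLOCK and BMAL1 at E-boxes. NFIL3 (also E4BP4) binds the same D-boxes and represses. BHLHE40 and BHLHE41 (DEC1 and DEC2) bind E-boxes and oppose CLOCK and BMAL1, so that this set holds activators, their competing repressor and a pair of feedback repressors. Mice lacking all of the PAR bZIP proteins are known for epileptic seizures, and a rare human variant of DEC2 is known for short sleep. Nfil3 and Bhlhe40 are also induced by stimulation in many cells.

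The probes are 60 bases long, and their positions are given on mouse build mm9, which the scanner file headers of run 1 name. Dbp had 1 probe (chr7:52965265-52965324), as did Hlf (chr11:90199978-90200037, minus strand) and Bhlhe40 (chr6:108616309-108616368). Nfil3 had a pair, A_51_P111492 (chr13:53062869-53062928) and A_52_P500027 (chr13:53062585-53062644), both on the minus strand, starting at bases 1641 and 1925 of the transcript. Bhlhe41 also had a pair on the minus strand, A_51_P451176 (chr6:145811275-145811334) and A_52_P618912 (chr6:145812686-145812745). Tef had 4 probes on the plus strand: A_52_P485573 (chr15:81656928-81656987), A_51_P450561 (chr15:81654218-81654277), A_52_P173309 (chr15:81651816-81653921) and A_52_P658073 (chr15:81646554-81646613). The third of these spanned 2106 bases of genome with its 60 bases, so it crosses a splice junction. The last was designed on a separate cDNA clone and not on the Tef RefSeq transcript that the other 3 share. The first 30 bases of the Tef and Nfil3 probes are shown, with no base in capitals.

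Tef A_52_P485573: aaattttctagaaaaaggcaaagatgattt
Tef A_51_P450561: gcgtacctgctctaggagcactcacgtctc
Tef A_52_P173309: agccaagaaagtctttgtccctgatgaaca
Tef A_52_P658073: ggagtgtatatcactgttagagcattttac
Nfil3 A_51_P111492: aatagcaaacttatctgcagaggtggtctc
Nfil3 A_52_P500027: cgttatttttgctctattataaagtgtgta

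Promoters from RefSeq on build GRCm38.p6, 250 bases before to 50 bases after the gene start, were searched on both strands for the E-box CACGTG and for the D-box letters TTATGTAA and TTACGTAA. Of the 6 genes, all but Bhlhe40 had an entry. An E-box lay in both Tef promoters and in the Bhlhe41 promoter, against 7.15% of all 32851 promoters. No E-box letters were found in the windows of Dbp, Hlf and Nfil3, and no D-box letters in any of the 6 windows (1.06% of all promoters held them). A match of letters is not evidence of binding. The 100 bases that end 100 bases upstream of the start are shown for the promoters with an E-box, which is in capitals.

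Tef, first start, plus strand, chr15:81802473-81802572: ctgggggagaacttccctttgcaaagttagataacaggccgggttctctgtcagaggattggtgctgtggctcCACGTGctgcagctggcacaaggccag
Tef, second start, plus strand, chr15:81811214-81811313: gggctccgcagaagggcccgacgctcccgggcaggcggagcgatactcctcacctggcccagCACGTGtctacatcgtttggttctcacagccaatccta
Bhlhe41, minus strand, chr6:145865521-145865620: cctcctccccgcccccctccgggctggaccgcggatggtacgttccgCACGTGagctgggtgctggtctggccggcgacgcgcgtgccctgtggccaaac

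Intensities were converted to log2, and each array's 75th percentile was subtracted, so that a level of 0 is the 75th percentile of that array. Levels of different probes cannot be ranked against each other. All 11 probes passed the filter for testing, and 9 were well above background on all 30 arrays; Tef A_52_P658073 was so on 27 and Bhlhe41 A_52_P618912 on 29. Per3 5/5 mice were scanned in run 1 (a scanning day) with 7 WT mice, and Per3 4/4 mice in run 2 with the other 8, and each knock-in was compared with the WT mice of its own run. Differences are KI minus WT on the log2 scale from a limma fit over all 30 arrays. The percentage of spots well above background ran from 58.6 to 74.6 per array, and the lowest 2 were Per3 4/4 replicate 5 (58.6%) and WT replicate 15 (60.9%). The hypothalamus markers (Pomc, Agrp, Hcrt, Pmch and others, 11 of 12 with a probe) were well above background on most arrays for all 11, with a mean log2 level of 1.99 to 3.39 in run 1. In run 2 they ran from 0.19 to 4.15, and the lowest was WT replicate 10, in which the activity-regulated genes stood highest (1.43, against -0.47 in the next WT array of run 2). Those 2 lists were 2 of the 7 that Dixon's ratio set apart among 64 list and group pairs. Several values that rest on this array, though not all, are given with and without it. The single Per3 probe, whose place relative to exon 18 was not examined and which therefore checks no label, differed by -0.23 in Per3 5/5 and 0.23 in Per3 4/4. In such tissue blocks, fewer cells of a type and less RNA per cell cannot be told apart.

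No probe of the 6 genes reached an adjusted p under 0.05 (limma, Benjamini-Hochberg over all 29953 probes tested) in either comparison. In Per3 5/5 mice, 0 of 11 passed beside 0.0% of all probes tested (0 of 29953), and 0 of 11 had an unadjusted p under 0.05 beside 6.17% (1849 probes). In Per3 4/4 mice, 0 of 11 passed beside 0.0134% of all probes (4 probes), and 1 of 11, an Nfil3 probe, had an unadjusted p under 0.05 beside 1.73% (519 probes). For the difference between the 2 effects the shares were 0 of 11 beside 0.0%, and 0 of 11 beside 2.98% (893 probes). The methods' t-test, an unpaired test on the same values, also called 0 of 11 after adjustment. The lowest adjusted p among the members was 0.81 in Per3 5/5 and 1.00 in Per3 4/4. The members' median difference was -0.0055 in Per3 5/5 (5 higher, 6 lower), where the median of all probes was -0.020. It was -0.094 in Per3 4/4 (1 higher, 10 lower), where that of all probes was 0.0059. Of all probes tested, 45.5% were higher in Per3 5/5 and 51.7% in Per3 4/4. These splits count probes and not genes, and Tef, Nfil3 and Bhlhe41 each enter with more than 1 probe. Without the 2 arrays of lowest share above background, the Per3 4/4 split became 6 higher and 5 lower, with a median of 0.063. Quantile normalization turned the sign of the Per3 5/5 median (0.034, 7 higher and 4 lower) and left 9 of 11 lower in Per3 4/4. In no member probe and no comparison were the ranges of KI and WT arrays separate. The share of all tested probes with separate ranges was not counted, so nothing particular to the members is read from this.

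**Figure D1:**
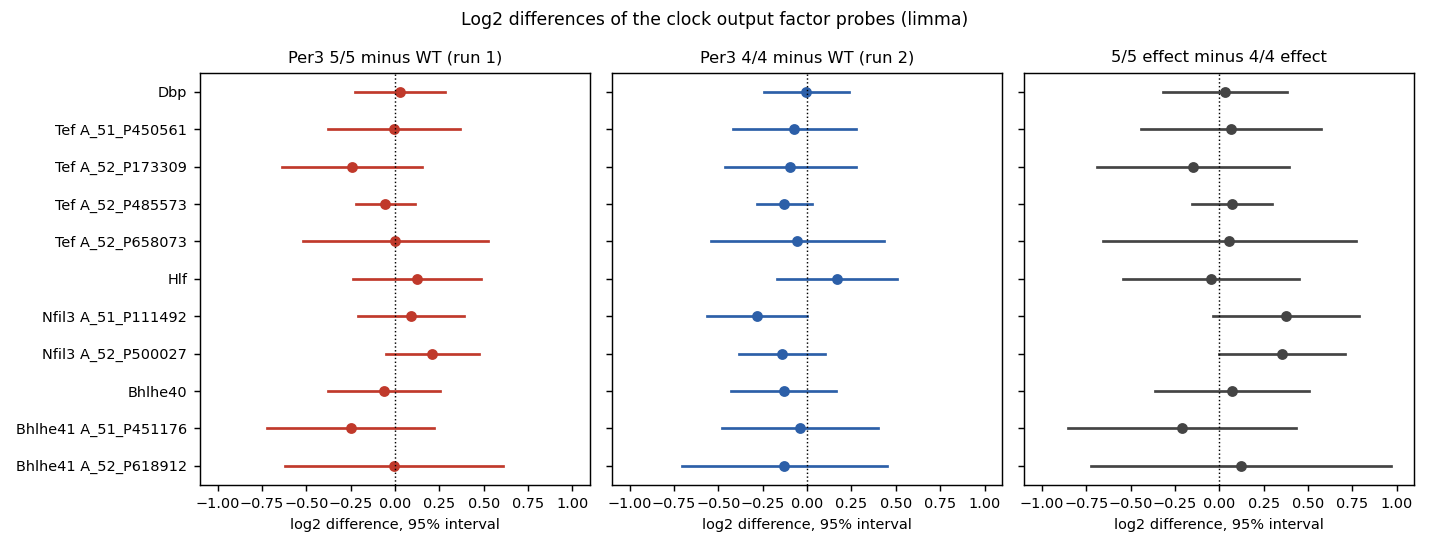
Log2 differences of the 11 probes (points) with 95% intervals (lines) from limma, for Per3 5/5 minus WT in run 1, Per3 4/4 minus WT in run 2 and the difference between these effects; the dotted line marks no difference. Every interval of the Per3 5/5 panel spans 0, and in the Per3 4/4 panel only that of Nfil3 A_51_P111492 ends short of it, at -0.0016.

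Dbp, a PAR bZIP activator known for a wide daily swing in most tissues, did not differ detectably between genotypes. In Dbp, the log2 level ran from 4.53 to 5.44 with a median of 5.03 in the 7 Per3 5/5 arrays and from 4.52 to 5.21 with a median of 5.02 in the 7 run 1 WT arrays. For run 2, it ran from 4.83 to 5.49 with a median of 5.23 in the 8 Per3 4/4 arrays and from 4.88 to 5.38 with a median of 5.25 in the 8 run 2 WT arrays. The KI and WT ranges overlapped in both runs, and the lowest array of run 2 belonged to Per3 4/4. The difference was 0.028 (SE 0.13, 95% interval -0.23 to 0.28) in Per3 5/5 and -0.0044 (SE 0.12, 95% interval -0.24 to 0.23) in Per3 4/4. As folds, the intervals ran from 0.854 to 1.22 and from 0.845 to 1.18, so a change of Dbp beyond these bounds lies outside the 95% intervals. Exact two-sided permutation p-values were 0.848 and 0.967 (n = 7 and 7, and n = 8 and 8).

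Hlf, a PAR bZIP activator expressed in brain and liver, had a mean above that of WT in both knock-ins, and neither difference passed the test. In Hlf, the log2 level ran from 2.62 to 2.94 with a median of 2.81 in the 7 Per3 5/5 arrays and from 2.44 to 2.88 with a median of 2.70 in the 7 run 1 WT arrays. Of the 7 Per3 5/5 arrays, 6 exceeded the WT mean and 2 exceeded every WT array. In run 2, levels lay from 1.75 to 3.31 with a median of 2.66 in the 8 Per3 4/4 arrays and from 1.90 to 3.08 with a median of 2.47 in the 8 run 2 WT arrays. The spread in run 2 (SD 0.46 in Per3 4/4 and 0.42 in WT) was wider than in run 1 (0.10 and 0.16). The limma fit pools the spread of both runs, so the wider run 2 spread enters the Per3 5/5 interval as well. The difference was 0.12 (SE 0.18, 95% interval -0.24 to 0.49) in Per3 5/5 and 0.17 (SE 0.17, 95% interval -0.17 to 0.51) in Per3 4/4, with exact permutation p-values of 0.106 (n = 7 and 7) and 0.447 (n = 8 and 8).

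Tef, a PAR bZIP activator first described in the embryonic pituitary, was read by 4 probes. For A_52_P485573, the brightest of them, the log2 level ran from 3.22 to 3.46 with a median of 3.41 in the 7 Per3 5/5 arrays and from 3.26 to 3.57 with a median of 3.43 in the 7 run 1 WT arrays. In run 2, values went from 2.98 to 3.31 with a median of 3.21 in the 8 Per3 4/4 arrays and from 3.20 to 3.66 with a median of 3.22 in the 8 run 2 WT arrays. Of the 8 Per3 4/4 arrays, 7 lay below the WT mean and 3 lay below every WT array, though the ranges overlapped. The difference was -0.054 (SE 0.081, 95% interval -0.22 to 0.11) in Per3 5/5 and -0.13 (SE 0.075, 95% interval -0.28 to 0.026) in Per3 4/4, or 8.49% lower, with an exact permutation p of 0.0856 (n = 8 and 8) and a limma adjusted p of 1.00. WT replicate 10 was the highest WT array (3.66), and without it the Per3 4/4 difference was -0.076.

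The other Tef probes showed no call either, and their intervals spanned 0 in both knock-ins. The junction-spanning probe A_52_P173309 differed by -0.24 (SE 0.19, 95% interval -0.64 to 0.15) in Per3 5/5 and by -0.094 (SE 0.18, 95% interval -0.46 to 0.27) in Per3 4/4. In Per3 5/5 its levels ran from -2.05 to -1.11 with a median of -1.35, and in run 1 WT arrays from -1.93 to -1.02 with a median of -1.30. In run 2 they ran from -3.42 to -2.46 with a median of -2.87 in Per3 4/4 and from -3.54 to -2.07 with a median of -2.83 in WT. The mean of both groups was lower in run 2 than in run 1, a step between runs that A_52_P485573 did not show to this extent (WT means -1.32 and -2.81, against 3.44 and 3.29), and mice and scanning day cannot be told apart between runs. Levels of A_51_P450561 ran from -2.55 to -2.01 with a median of -2.13 in Per3 5/5 and from -2.46 to -1.95 with a median of -2.23 in WT of run 1, and from -2.84 to -1.71 with a median of -2.02 in Per3 4/4 and from -2.85 to -1.0 with a median of -2.11 in WT of run 2. Its WT arrays of run 2 spanned the whole range of the Per3 4/4 arrays. Probe A_51_P450561 differed by -0.0057 (SE 0.18, 95% interval -0.38 to 0.36) and -0.072 (SE 0.17, 95% interval -0.42 to 0.27), and the cDNA-clone probe A_52_P658073 by 0.0029 (SE 0.25, 95% interval -0.52 to 0.52) and -0.055 (SE 0.24, 95% interval -0.54 to 0.43). Probes A_51_P450561 and A_52_P173309 moved together across mice (r = 0.69 after removing group means, 30 arrays), and neither followed A_52_P485573 closely (r = 0.22 and 0.085). In run 1 the relation of A_52_P173309 with A_52_P485573 was -0.56 and in run 2 0.42, so that the Tef probes do not give 1 common reading across mice.

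Nfil3, the repressor that competes for D-boxes, held the largest difference of any member probe in Per3 4/4 and the largest differences between the 2 effects. Both probes were above WT in Per3 5/5 and below it in Per3 4/4, except that array weights turned A_51_P111492 in Per3 5/5 (-0.053) and leaving out the run term turned it in both (-0.50 and 0.24), and no value passed adjustment. For A_51_P111492, the log2 level ran from -1.27 to -0.33 with a median of -0.99 in the 7 Per3 5/5 arrays and from -1.29 to -0.65 with a median of -0.98 in the 7 run 1 WT arrays. In run 2, it extended from -0.40 to 0.047 with a median of -0.11 in the 8 Per3 4/4 arrays and from -0.36 to 0.79 with a median of 0.11 in the 8 run 2 WT arrays. All 8 Per3 4/4 arrays lay below the WT mean, and 1 lay below every WT array. The difference was -0.28 (SE 0.14, 95% interval -0.56 to -0.0016) in Per3 4/4, or 17.8% lower, with an exact permutation p of 0.0406 (n = 8 and 8). The unadjusted limma p was 0.0488, and the limma adjusted p over all probes was 1.00. In Per3 5/5 it was 0.091 (SE 0.15, 95% interval -0.21 to 0.39).

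For the second Nfil3 probe, A_52_P500027, the log2 level ran from -0.24 to 0.40 with a median of 0.26 in the 7 Per3 5/5 arrays and from -0.34 to 0.17 with a median of -0.067 in the 7 run 1 WT arrays. In run 1, 4 of the 7 Per3 5/5 arrays exceeded every WT array, and the groups still overlapped. In run 2, arrays lay from -0.10 to 0.29 with a median of -0.0089 in the 8 Per3 4/4 arrays and from -0.095 to 0.80 with a median of 0.046 in the 8 run 2 WT arrays. The difference was 0.21 (SE 0.13, 95% interval -0.049 to 0.47) in Per3 5/5 (exact permutation p = 0.0973, n = 7 and 7) and -0.14 (SE 0.12, 95% interval -0.38 to 0.10) in Per3 4/4. The difference between the 2 effects was 0.37 (SE 0.20, 95% interval -0.038 to 0.79) for A_51_P111492 and 0.35 (SE 0.17, 95% interval -0.0044 to 0.71) for A_52_P500027. Both intervals include 0, and the limma adjusted p was 1.00 for each probe. WT replicate 10 held the highest Nfil3 level of run 2 on both probes, 0.79 and 0.80. Without this array the Per3 4/4 difference was -0.19 and -0.051, and the difference between effects 0.28 and 0.26. The same array stood apart in the hypothalamus and activity-regulated lists, and the part of that in the Nfil3 values was not tested. The 2 probes moved together across mice (r = 0.62 over 30 arrays, 0.58 in run 1, 0.66 in run 2 and 0.47 without WT replicate 10).

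**Figure D2:**
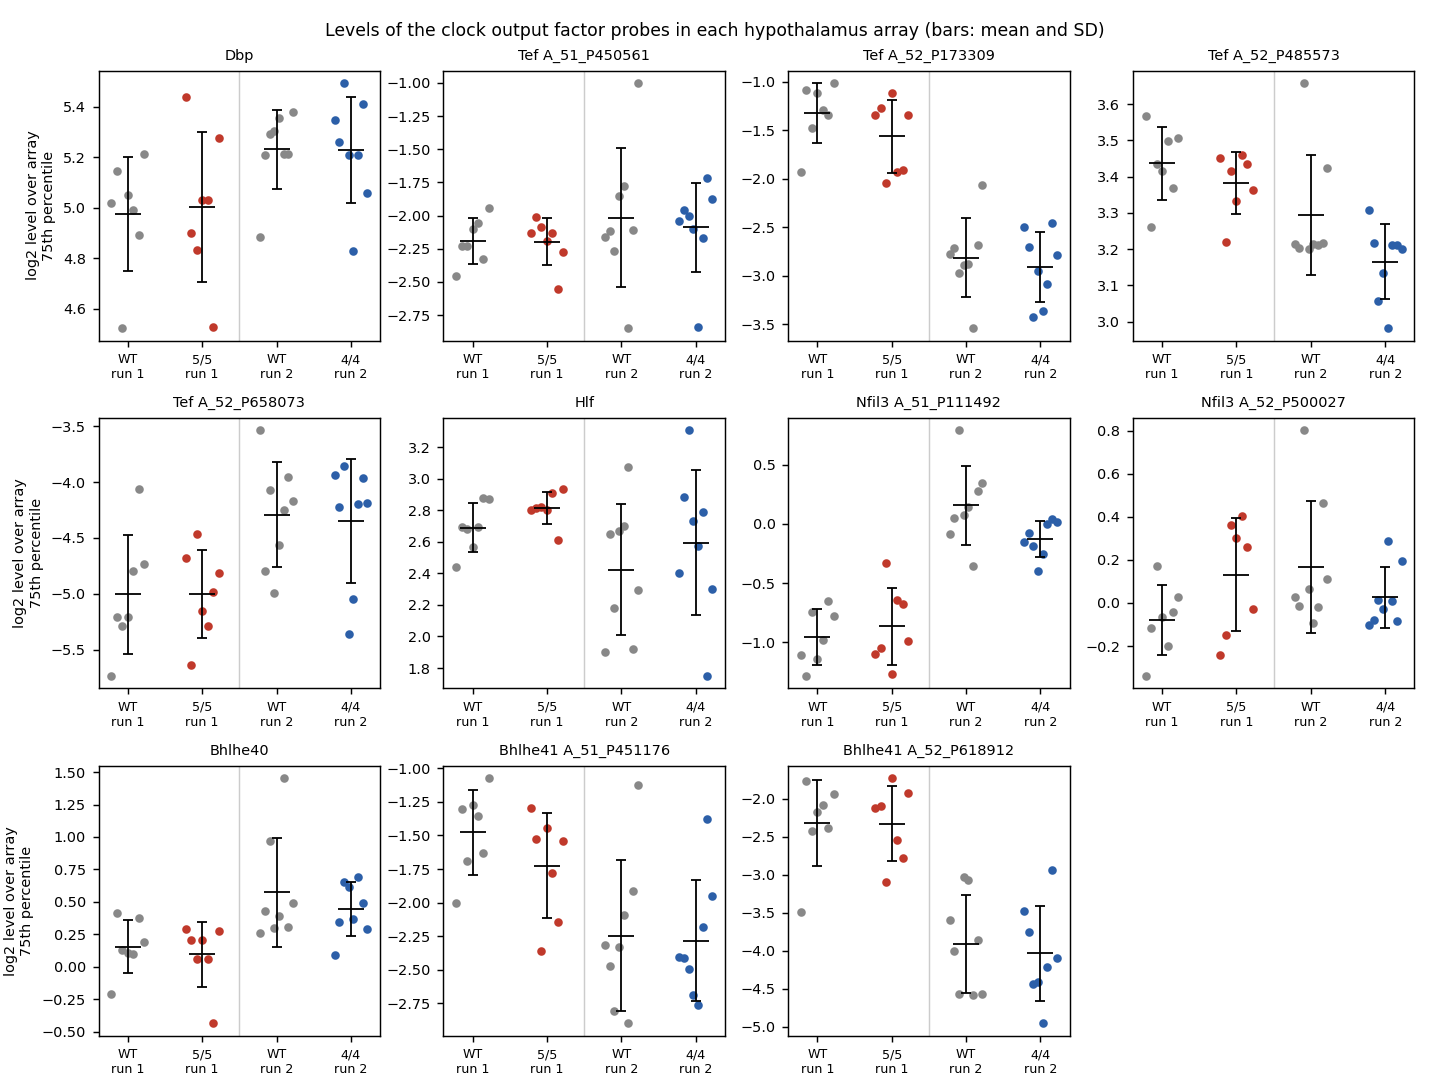
Log2 level over the array's 75th percentile (vertical axis, a scale of its own in each panel) of the 11 probes in each of 30 arrays, grouped by run and genotype; points are arrays, and bars show the mean and SD. KI and WT arrays overlap in every panel, and WT replicate 10 is the highest point of run 2 for both Nfil3 probes (0.79 and 0.80).

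Bhlhe40, the E-box repressor DEC1, the DEC protein most often described as inducible, showed no detectable difference. In Bhlhe40, the log2 level ran from -0.43 to 0.29 with a median of 0.21 in the 7 Per3 5/5 arrays and from -0.21 to 0.41 with a median of 0.13 in the 7 run 1 WT arrays. Among run 2 mice, it stretched from 0.091 to 0.69 with a median of 0.43 in the 8 Per3 4/4 arrays and from 0.26 to 1.45 with a median of 0.41 in the 8 run 2 WT arrays. A single WT array, replicate 13, set the upper end of run 2. The difference was -0.061 (SE 0.15, 95% interval -0.38 to 0.26) in Per3 5/5 and -0.13 (SE 0.14, 95% interval -0.43 to 0.17) in Per3 4/4. Without WT replicate 13 the latter was -0.0054.

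Bhlhe41, the E-box repressor DEC2, held the probe with the widest interval of all members. For A_51_P451176, the log2 level ran from -2.36 to -1.29 with a median of -1.54 in the 7 Per3 5/5 arrays and from -2.01 to -1.07 with a median of -1.36 in the 7 run 1 WT arrays. In run 2, levels went from -2.76 to -1.38 with a median of -2.41 in the 8 Per3 4/4 arrays and from -2.90 to -1.12 with a median of -2.32 in the 8 run 2 WT arrays. The difference was -0.25 (SE 0.23, 95% interval -0.72 to 0.22) in Per3 5/5 and -0.039 (SE 0.22, 95% interval -0.48 to 0.40) in Per3 4/4. For the dimmer probe A_52_P618912, it was -0.0055 (SE 0.30, 95% interval -0.62 to 0.61) and -0.13 (SE 0.28, 95% interval -0.70 to 0.45), so that a change of up to 1.53-fold in Per3 5/5 lay within the interval. Levels of A_52_P618912 ran from -3.10 to -1.73 with a median of -2.13 in Per3 5/5 and from -3.49 to -1.77 with a median of -2.17 in the WT arrays of run 1. They ran from -4.95 to -2.94 with a median of -4.15 in Per3 4/4 and from -4.57 to -3.03 with a median of -3.93 in the WT arrays of run 2. On both probes KI and WT overlapped along most of their ranges. The 2 Bhlhe41 probes moved together more closely in run 1 (r = 0.89) than in run 2 (r = 0.37).

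Among mice of 1 genotype and run, the members varied to different degrees. The SD within groups was 0.12 for Tef A_52_P485573, which put it at percentile 0.578 of all 29953 probes tested and at percentile 2.18 of the 1330 probes within 0.5 log2 of its level. The other Tef probes did not share this. A_51_P450561, A_52_P173309 and A_52_P658073 (SD 0.34, 0.37 and 0.49) stood at percentiles 53.6, 59.2 and 47.0 among probes of like level. Dbp (SD 0.22) stood at percentile 49.3 among probes of like level, in the middle. Hlf (SD 0.34) stood at percentile 79, and the Bhlhe41 probes (SD 0.44 and 0.59) at 78.5 and 86.8. The Nfil3 probes and Bhlhe40 lay between percentiles 32 and 58.2. These are descriptions of 30 arrays, and the spread of a probe holds its measurement error as well as the mice.

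**Figure D3:**
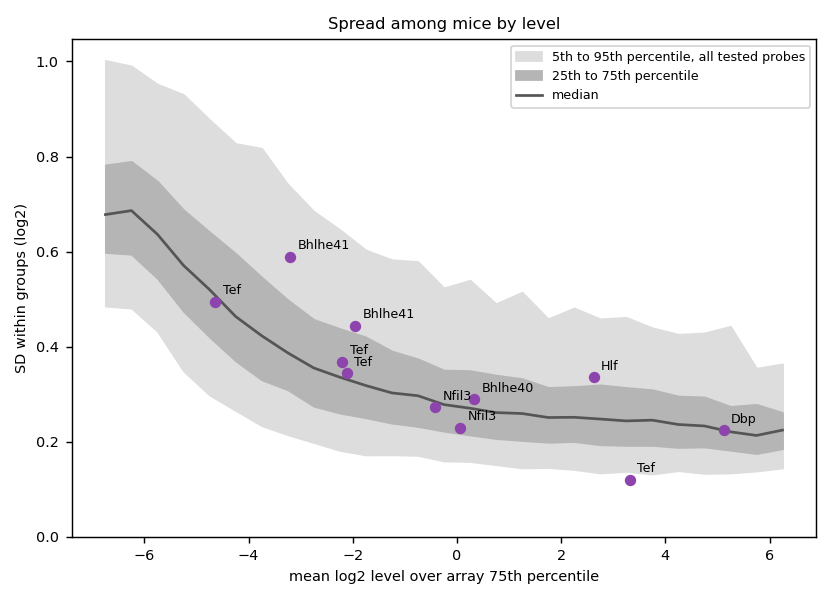
SD within groups on the log2 scale (vertical axis) against mean log2 level over the array's 75th percentile (horizontal axis); bands and line show percentiles of all tested probes in bins of level, and points are the 11 probes. The Tef point at an SD of 0.12 is A_52_P485573, and both Bhlhe41 points lie above the line for their level.

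Whether the 6 factors varied together from mouse to mouse was tested with the brightest probe of each gene after group means were removed. Of 15 pairs, none passed after Benjamini-Hochberg adjustment over the 15 (two-sided, 100000 permutations within groups). The closest to the threshold were Dbp with Bhlhe41 and Hlf with Bhlhe40. Dbp and Bhlhe41 had r = 0.45 and rho = 0.46 (permutation p = 0.0113 and 0.016, adjusted p = 0.152 and 0.24). The r was 0.67 in run 1, 0.31 in run 2 and 0.42 without the 2 arrays farthest from the Dbp median. With slide means also removed it was 0.58, with an adjusted permutation p of 0.0118. With array brightness and share above background removed it was 0.49, with an adjusted permutation p of 0.0456. The permutations took no account of the terms removed, so these p-values can be too small, and no pass is read from them. Slide removal was chosen after seeing the data. Hlf and Bhlhe40 had r = 0.46 and rho = 0.37 (permutation p = 0.0202 and 0.0692, adjusted p = 0.152 and 0.381), with r of 0.73 and 0.44 in the 2 runs and 0.56 without the 2 arrays farthest from the Hlf median. Without WT replicate 10 the Hlf and Bhlhe40 r was 0.54, with an adjusted permutation p of 0.0439. This exclusion was also chosen after seeing the data. Dbp and Nfil3, activator and repressor of the same element, had a negative r in both runs (-0.54 and -0.21). Over both runs they had r = -0.38 and rho = -0.33 (permutation p = 0.0468 and 0.102, adjusted p = 0.234 and 0.381), and r = -0.30 without the 2 arrays farthest from the Dbp median. Without WT replicate 10 the Dbp and Nfil3 r was -0.50, with an adjusted permutation p of 0.0705. The DEC pair had r of 0.63 in run 1 and -0.39 in run 2. Signs differed between the runs in 6 of 15 pairs.

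**Figure D4:**
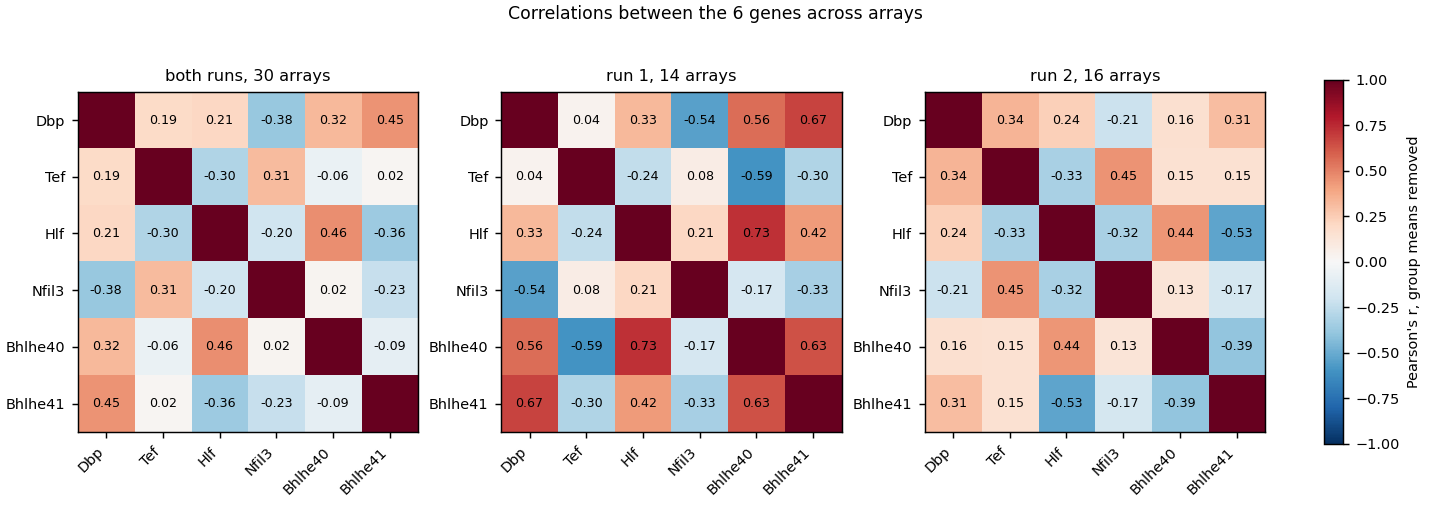
Pearson's r between the brightest probes of the 6 genes after removing group means, over both runs (30 arrays), in run 1 (14 arrays) and in run 2 (16 arrays); red is positive and blue negative. Dbp with Bhlhe41 (0.45, 0.67 and 0.31) and Hlf with Bhlhe40 (0.46, 0.73 and 0.44) are positive in each panel, and the DEC pair changes sign (0.63 and -0.39).

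The genes whose level followed each member most closely across the 30 arrays were different for each member. They are given by r after removing group means, over 23153 to 23156 probes of other named genes, as a description with no test. For Nfil3 they were Junb (0.77), Fosl2 (0.76), Egln3 (0.74). Junb and Fosl2 are AP-1 subunits induced by neuronal activity. The r of Nfil3 with Junb was 0.58 in run 1 and 0.89 in run 2, and 0.63 without WT replicate 10. Bhlhe41 followed Lrrc4b (0.94), Nol10 (0.93), Taok2 (0.92), and Hlf followed Ttc19 (0.91), Ntng1 (0.91), Lrrtm2 (0.89). Bhlhe40 followed Bzw1 (0.89), Ncoa2 (0.83), Armc8 (0.81), and Tef Bahd1 (0.84), Bcl2l13 (0.80), Ctdspl (0.80). Dbp had the lowest of these maxima, Synpo2 (0.75), Cyp4f15 (0.70), Haus5 (0.68). None of these genes was in the clock lists fixed for the analysis except Junb, which stood in the activity-regulated list. The points share slides, hybridisation and dissection, and these r values were chosen as the highest.

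**Figure D5:**
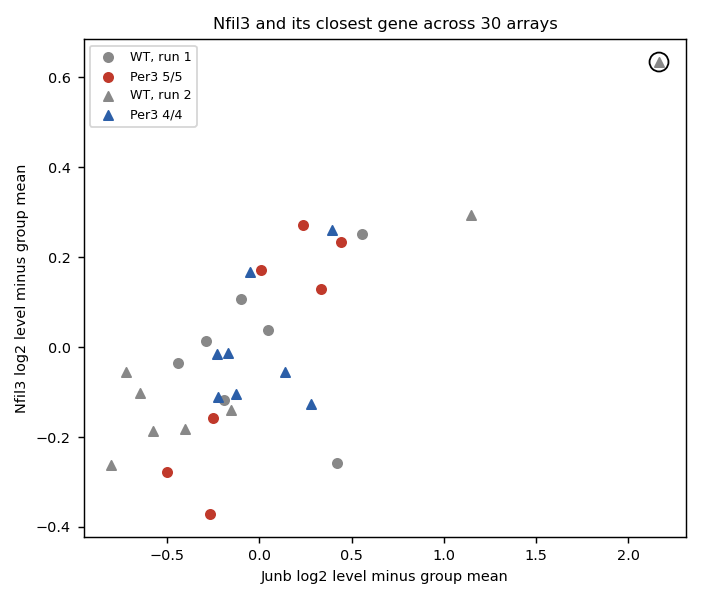
Nfil3 log2 level (probe A_52_P500027, vertical axis) against Junb log2 level (probe A_51_P159194, horizontal axis), each minus its group mean, in 30 arrays; circles are run 1, triangles run 2, and the ring marks WT replicate 10. The ringed array is the highest on both axes, and r was 0.77 with it and 0.63 without it.

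Other parts of the clock were read from lists of genes. None of the 36 probes of 18 core clock genes passed the adjusted threshold in either comparison (limma). At an unadjusted p under 0.05, 1 was lower in Per3 5/5, where 6.17% of all probes tested had such a p in either direction. In Per3 4/4, 2 were higher, beside 1.73% of all probes. The median of the core clock list was 0.0069 in Per3 5/5, with -0.0042 under normexp, and 0.090 in Per3 4/4, with 0.043 without WT replicate 10. The extremes in Per3 5/5 were Arntl2 (-0.38) and Fbxl21 (0.33), and in Per3 4/4 Npas2 (-0.21), the CLOCK-like partner of BMAL1, and Fbxl21 (0.44), an F-box protein that acts on cryptochromes. None of 15 probes of 8 other clock-controlled genes passed (1 lower in Per3 5/5 at an unadjusted p under 0.05, 0 in Per3 4/4), with medians of -0.10 and 0.072. They ran from Usp2 (-0.36) to Avp (0.20) in Per3 5/5 and from Usp2 (-0.29) to Avp (0.55), the neuropeptide vasopressin, in Per3 4/4. The PAR bZIP targets known from liver and brain (Pdxk, Por, Alas1, Nr1i3 and Cyp2a5, 8 probes tested, with Cyp2b10 not tested) also had no call and none at an unadjusted p under 0.05. Their medians were -0.058 and 0.015, the latter turning to -0.042 under normexp and -0.012 without WT replicate 10. Among them Nr1i3 was lowest in Per3 5/5 (-0.60) and highest in Per3 4/4 (0.19), while Alas1 was highest in Per3 5/5 (0.14) and lowest in Per3 4/4 (-0.12). Pdxk, which encodes pyridoxal kinase, had values between -0.22 and 0.13.

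The activity-regulated genes, which hold the closest gene to Nfil3, had no call among 16 probes of 11 genes. At an unadjusted limma p under 0.05, 3 were lower in Per3 5/5, beside 6.17% of all probes tested in either direction. In Per3 4/4, 2 were lower, beside 1.73%. The median of the list was -0.38 in Per3 5/5 (16 of 16 lower, where 45.5% of all probes tested were higher). It was -0.40 in Per3 4/4 (15 of 16 lower, where 51.7% of all probes tested were higher). Without WT replicate 10 the Per3 4/4 median was -0.15 (11 of 16 lower). Values ran from -0.95 (Npas4) to -0.078 (Dusp1) in Per3 5/5 and from -0.65 (Egr1) to 0.17 (Ier2) in Per3 4/4. Nfil3 did not share this list's sign in Per3 5/5, where both its probes had values above 0. Against the mean level of the list, Nfil3 had r = 0.65 over 30 arrays (0.45 and 0.77 in the runs), and 0.38 without WT replicate 10. Nfil3 was not alone in this. Tef had r = 0.58 (0.60 and 0.59 in the runs), and 0.12 without that array. Bhlhe41 had r = -0.48 (-0.58 and -0.46), and -0.48 without that array. Dbp, Hlf and Bhlhe40 lay between -0.13 and 0.051 over 30 arrays. Dbp had r = 0.56 with the mean level of the core clock list (0.64 and 0.58). Hlf had 0.51 with that list (0.77 and 0.49 in the runs) and Bhlhe41 0.48 (0.77 and 0.36). For Nfil3 it was -0.50 (-0.27 and -0.62), for Tef -0.26 (-0.43 and -0.19) and for Bhlhe40 0.17 (0.86 and -0.10). The closest single gene to Dbp among the clock lists was Gm129, the CLOCK and BMAL1 repressor now called Ciart (r = 0.67, with 0.63 in run 1 and 0.73 in run 2). Dbp also followed Per1 (0.60) and Nr1d1 (0.59), both known E-box targets of CLOCK and BMAL1, in each run (0.57 and 0.80 for Per1, 0.84 and 0.68 for Nr1d1). The other core clock genes followed Dbp less closely, from -0.49 (Csnk1d) to 0.45 (Rora), with Per2 at -0.050 and Nr1d2 at -0.18. With Arntl, which encodes BMAL1, the r of Dbp was -0.62 in run 1 and 0.60 in run 2. Such relations were not particular to Dbp. With Nr1d1, Bhlhe41 had r = 0.78 (0.63 in run 1 and 0.85 in run 2), while Tef, Hlf, Nfil3 and Bhlhe40 lay between -0.20 and 0.25. With Rorb, Hlf had r = 0.77 (0.40 and 0.82), against 0.28 for Dbp. These relations were chosen after their values were seen and carry no test.

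Markers of other tissue in the blocks were measured beside the members. Choroid plexus genes (9 of 10 with a probe, all 9 well above background on most arrays) had a mean log2 level of -3.13 to -0.60 in Per3 5/5, -1.46 to -0.28 in WT of run 1, -2.92 to 0.75 in Per3 4/4 and -3.67 to 0.73 in WT of run 2. The mean was -0.83 from WT in Per3 5/5 and 0.96 in Per3 4/4, and the part of this in the members' values was not tested. Anterior pituitary genes (6 of 7 with a probe) ran from -4.66 to 5.29 in WT of run 2, and the highest was replicate 14. The thalamus list (5 of 5 genes) ran from 2.21 to 2.97 in Per3 5/5, 2.26 to 2.85 in WT of run 1, 1.07 to 3.23 in Per3 4/4 and -0.48 to 3.08 in WT of run 2. Hlf moved with it across mice (r = 0.71 over 30 arrays, 0.76 in run 1, 0.71 in run 2 and 0.80 without WT replicate 10). The part of tissue make-up in the Hlf spread was not tested. The suprachiasmatic nucleus list (Vip, Avp, Prok2, Six6, Rgs16 and Grp) differed by 0.30 and 0.17 in mean level between KI and WT. The median probe difference of this list in Per3 4/4 was 0.26, and 0.090 without WT replicate 10. In the same order, it was 0.44 and 0.068 for thalamus, 0.32 and -0.0035 for hypothalamus, and 0.79 and 0.60 for choroid plexus. In striatum, cortex and hippocampus, blood and the 4 glial and endothelial lists, the difference in mean level from WT lay between -0.91 and 0.054, the lowest being cortex and hippocampus in Per3 5/5. No probe of these 12 lists passed the adjusted threshold in either comparison.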

How the data were processed

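RNA from 30 mouse hypothalamus blocks, 1 mouse per array, had been labelled with Cy3 and hybridised to 1-colour Agilent arrays. The authors deposited scanner intensity values (Agilent Feature Extraction 10.7.1.1, background subtracted and detrended) and a log2 table, shifted to the 75th percentile and centred on each probe's median within run. All columns were mapped to a sample, and 0 were left out. Here, intensities were scaled to each array's 75th percentile and log2-transformed, control and outlier spots were left out, and spots of a probe were averaged. The 29953 probes well above background on 50% or more of the arrays of at least 1 group were tested with limma 3.58.1 (R 4.3.3), with genotype and run as terms and Benjamini-Hochberg adjustment at 0.05. Single probes were also tested by exact permutation within run. The 75th percentile intensity ran from 347 to 1546, 36 to 117 outlier spots were dropped per array, and the number of arrays limits precision. P-values rest on the spread among arrays, which holds measurement error as well as the mice.

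Every member probe is named, and for each list the lowest and highest difference, and the 3 most similar genes per member. Members and lists were chosen with earlier results of these data known. Alternatives concerned run, slide, replicate block, background, normalization, filters, weights, moderation and left-out arrays. Those on the 2 dimmest arrays, WT replicate 10, slide means and the table's numbering were chosen after seeing the data. The fit was tested on simulated data.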

Additional observations from a re-analysis of the deposited data

Results flagged for a closer look

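In 5 of 44 sets of 7 or 8 arrays, 1 array lay far from the rest of its group, where chance gives about 1 in 20. The measure is the gap to the nearest array as a share of the group's range. For Dbp it was WT replicate 8 of run 2, the lowest at 4.88 with the next at 5.21 (share 0.656). For Tef A_51_P450561 it was Per3 4/4 replicate 5, the array with the lowest share of spots above background, at -2.84 with the next at -2.17 (share 0.594). Per3 5/5 replicate 6 was the lowest of its group for both Hlf (2.62 with the next at 2.80, share 0.578) and Bhlhe40 (-0.43 with the next at 0.06, share 0.680). The same array was also the lowest of its group in the thalamus list (2.21, with the next at 2.67), and the part of this in the Hlf and Bhlhe40 values was not tested. For Bhlhe41 A_52_P618912 it was WT replicate 1 of run 1, at -3.49 with the next at -2.42 (share 0.622). All 5 spots were well above background.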

How the results depend on the processing

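The precision is limited by 7 or 8 arrays a group, and dim probes (Tef A_52_P658073, Bhlhe41 A_52_P618912) had the widest intervals. No member probe passed the adjusted threshold under any alternative that kept the runs apart (smallest adjusted p 0.391, and 0.497 with an array left out). Without the run term, which mixes the runs, 4 of 11 passed for the difference of effects, beside 14865 of all 29953 probes tested. Of 33 log2 differences, 14 kept their sign in every alternative with the run kept apart. Among values that turned, only Nfil3 A_51_P111492 in Per3 4/4 had an interval clear of 0, and it turned without the run term. The cause was not tested. Over all probes, the 4 calls of Per3 4/4 became 9 with slide as a random block or with array weights, 7 with normexp, with outlier spots kept or with probes above background on every array, 8 with trend and robust moderation, and 0 within the run's own arrays, by the methods' t-test or without the 2 dimmest arrays. Per3 5/5 had 16 calls with array weights, and the difference of effects 14865 without the run term.

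The replicate numbers of run 1 do not pair the mice. Correlations of same-numbered arrays ran from -0.29 to 0.40, and 13 of 14 columns of the authors' table matched an array of another number of the same genotype. A replicate block gave Nfil3 0.21 and Dbp 0.028 in Per3 5/5 with 0 probes called (3466 of 29953 with an unadjusted p under 0.05), and the table's numbers 0.21 and 0.028 with 0 called. The block changed no other call, and none could be fitted in run 2, where Per3 4/4 and WT share only the number 8.

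Signs that turned were as follows. With no run term, the turned values were in Per3 5/5 -0.50 (Nfil3 A_51_P111492), -0.11 (Dbp A_51_P180492), 0.16 (Bhlhe41 A_51_P451176), 0.55 (Tef A_52_P173309), 0.022 (Tef A_52_P485573), 0.84 (Bhlhe41 A_52_P618912), -0.38 (Tef A_52_P658073) and in Per3 4/4 0.24 (Nfil3 A_51_P111492), 0.11 (Dbp A_51_P180492), 0.064 (Bhlhe40 A_51_P272553), 0.0094 (Tef A_51_P450561), 0.28 (Tef A_52_P658073) and for the difference of effects -0.74 (Nfil3 A_51_P111492), 0.22 (Hlf A_51_P134228), -0.22 (Dbp A_51_P180492), -0.35 (Bhlhe40 A_51_P272553), -0.11 (Tef A_51_P450561), 0.56 (Bhlhe41 A_51_P451176), 1.34 (Tef A_52_P173309), -0.66 (Tef A_52_P658073). With slide as a fixed block, the turned values were in Per3 5/5 -0.012 (Dbp A_51_P180492) and for the difference of effects -0.0077 (Dbp A_51_P180492). With normexp (offset 50), the turned values were in Per3 5/5 0.023 (Bhlhe41 A_52_P618912), -0.099 (Tef A_52_P658073) and for the difference of effects -0.019 (Tef A_51_P450561), -0.074 (Tef A_52_P658073) and as r -0.031 (Tef with Bhlhe41). With quantile normalization, the turned values were in Per3 5/5 0.022 (Tef A_51_P450561), 0.044 (Bhlhe41 A_52_P618912) and in Per3 4/4 0.014 (Dbp A_51_P180492) and as r 0.019 (Bhlhe40 with Bhlhe41). With the percentile over probes above background on all arrays, the turned values were in Per3 5/5 0.00052 (Tef A_51_P450561), 0.00070 (Bhlhe41 A_52_P618912). With array weights, the turned values were in Per3 5/5 -0.053 (Nfil3 A_51_P111492), 0.024 (Bhlhe40 A_51_P272553), 0.11 (Bhlhe41 A_52_P618912), -0.041 (Tef A_52_P658073) and in Per3 4/4 0.012 (Dbp A_51_P180492), 0.40 (Tef A_52_P658073) and for the difference of effects 0.013 (Hlf A_51_P134228), -0.014 (Tef A_51_P450561), -0.058 (Tef A_52_P485573), -0.45 (Tef A_52_P658073). Without the 2 dimmest arrays, the turned values were in Per3 4/4 0.074 (Dbp A_51_P180492), 0.18 (Tef A_51_P450561), 0.19 (Bhlhe41 A_51_P451176), 0.077 (Tef A_52_P173309), 0.063 (Tef A_52_P658073) and for the difference of effects -0.045 (Dbp A_51_P180492), -0.19 (Tef A_51_P450561), -0.060 (Tef A_52_P658073) and as r -0.23 (Tef with Bhlhe41). Within run 1, the turned values were as r 0.21 (Hlf with Nfil3), -0.17 (Nfil3 with Bhlhe40), -0.30 (Tef with Bhlhe41), 0.42 (Hlf with Bhlhe41), 0.63 (Bhlhe40 with Bhlhe41). Within run 2, the turned values were as r 0.15 (Tef with Bhlhe40). With slide means removed, the turned values were as r 0.018 (Tef with Bhlhe40), -0.036 (Nfil3 with Bhlhe40), -0.086 (Tef with Bhlhe41), 0.12 (Hlf with Bhlhe41), 0.033 (Bhlhe40 with Bhlhe41). With the 75th percentile and share above background removed, the turned values were as r -0.044 (Nfil3 with Bhlhe40). With the mean over all probes of a gene, the turned values were as r -0.10 (Nfil3 with Bhlhe40). With 2 arrays far from the first gene median left out, the turned values were as r -0.10 (Nfil3 with Bhlhe40), 0.029 (Bhlhe40 with Bhlhe41). In the authors' table, the turned values were as r -0.013 (Tef with Bhlhe41). Without WT replicate 10, the turned values were as r -0.089 (Tef with Nfil3), -0.18 (Nfil3 with Bhlhe40). With each array left out in turn, values whose sign turned ran -0.047 to 0.11 (Dbp A_51_P180492 in Per3 5/5), -0.12 to 0.16 (Tef A_52_P658073 in Per3 5/5), -0.043 to 0.11 (Dbp A_51_P180492 for the difference of effects), -0.20 to 0.12 (Bhlhe41 A_52_P618912 in Per3 5/5), -0.088 to 0.21 (Tef A_52_P658073 for the difference of effects), -0.12 to 0.028 (Bhlhe40 A_51_P272553 in Per3 5/5), -0.050 to 0.054 (Tef A_51_P450561 in Per3 5/5), -0.072 to 0.28 (Bhlhe41 A_52_P618912 for the difference of effects), -0.17 to 0.056 (Hlf A_51_P134228 for the difference of effects), -0.17 to 0.12 (Bhlhe41 A_51_P451176 in Per3 4/4), -0.15 to 0.091 (Tef A_52_P658073 in Per3 4/4), -0.054 to 0.053 (Dbp A_51_P180492 in Per3 4/4), -0.19 to 0.073 (Tef A_51_P450561 in Per3 4/4), -0.28 to 0.0034 (Bhlhe41 A_52_P618912 in Per3 4/4), -0.079 to 0.19 (Tef A_51_P450561 for the difference of effects), -0.055 to 0.16 (Bhlhe40 A_51_P272553 for the difference of effects), -0.20 to 0.012 (Tef A_52_P173309 in Per3 4/4).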
